A study of Mus musculus with 24 samples.

Results

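The genes described here are 47 genes of the cell division cycle, chosen by gene symbol from a table of 28450 features. All 47 were found, each in 1 row. They were divided into 14 genes of the G1/S step and DNA replication and 33 genes of G2/M and mitosis. RNA was sequenced from kidneys of C57BL/6 mice that were wild type or knocked out for Nlrp3, an inflammasome sensor whose genotype the labels spell NLPR3-/-. Mice received daily injections of 200 µl into the peritoneum on days 1 to 7. The injection held saline alone or 75 mg/kg glyoxylate (Gly), and the kidneys were collected after 7 days. Gly is a precursor of oxalate, and the series describes the model as calcium oxalate nephrocalcinosis. The 4 groups were saline wild type, Gly wild type, saline knockout and Gly knockout, with 6 libraries each and 24 in all. All groups shared the strain, the tissue, the injected volume and the days of injection. The labels give no age or sex and do not say how the knockout was made. They also do not say that each library came from a different animal, so p-values measure the spread between these libraries.

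A cell that divides first commits in G1, when D-type and E-type cyclins with their kinases inactivate the retinoblastoma protein and release E2F factors. E2F factors switch on genes for the MCM helicase, the replication clamp and the enzymes that make deoxynucleotides, and DNA is copied in S phase. A later wave of transcription, driven by the MuvB core complex with B-Myb and Foxm1, supplies the cyclins, kinases, motors and checkpoint proteins of mitosis. Adult kidney cells rarely divide, and proliferation rises in tubule, interstitial and immune cells after injury.

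The values are FPKM (fragments per kilobase of transcript, scaled to the number of mapped fragments), a level scaled by gene length, so that levels of different genes can be set side by side. The sequencing depth is unknown. In tests, the difference between groups was taken on the log2(FPKM + 1) scale by limma, with all 24 libraries in 1 fit and p-values adjusted by Benjamini-Hochberg over 24807 features with a value above 0. On that scale the change of a gene at a low level is understated, so the ratio of group means of FPKM is given beside it. Genes with an adjusted p under 0.05 are called higher or lower. Where 3 values stand in a row, they are the lowest, the median and the highest of the 6 libraries of a group.

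Facts of the whole series that touch these genes are few. The 4 genes of the Y chromosome tested (Kdm5d, Uty, Ddx3y, Eif2s3y) summed to at most 0.0852 FPKM in saline knockout libraries 1, 2, 3, 5 and 6, and between 27.1 and 48.7 FPKM in the other 19 libraries, saline knockout library 4 included. Any comparison with saline knockout therefore also compares libraries without Y-linked transcripts with libraries that have them, and the effects cannot be told apart. Nlrp3 averaged 0.572 ± 0.224 FPKM in Gly wild type and 0.129 ± 0.00910 FPKM in Gly knockout (SD, n = 6 each, two-sided exact permutation p = 0.0022, the smallest that 6 against 6 can give). Under saline it was at 0.0663 ± 0.0168 FPKM in wild type and 0.0961 ± 0.0626 FPKM in knockout (exact permutation p = 0.30), too low to check the labels. The 7 kidney tubule markers summed to between 2252 and 4081 FPKM in every library, so the labelled tissue was present throughout. Their mean sum was 3578 FPKM in saline wild type, 2797 in Gly wild type, 3756 in saline knockout and 3662 in Gly knockout. Of the 7, 4 were called lower under Gly in wild type and 1 in knockout, beside 9.23% and 4.1% of all features. In Gly knockout 2 were called higher than in Gly wild type, beside 4.28% of all features.

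In wild-type kidneys under Gly, all 47 cell cycle genes were called higher, beside 32.3% of all features tested and 50.2% of features in a fit limited to those reaching 1 FPKM in 6 or more libraries. The level of the median gene rose 7.63-fold, 3.23-fold for the G1/S genes and 10.04-fold for the G2/M genes. In knockout kidneys 43 of the 47 were called higher under Gly, beside 13.2% of all features, and the ratio of the median gene was 4.01. Gly knockout lay below Gly wild type for 46 of the 47 genes, and 17 were called lower and 0 higher, beside 12.2% of all features called lower. Under saline the genotypes differed in 2 of the 47, Ube2c and Rrm1, both higher in knockout, beside 5.49% of all features called in either direction. These comparisons share groups with each other. Values of the groups are given side by side for the highest genes of each role, and ratios or means for the others.

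Levels of the whole table also moved. In wild type the median of the 13020 features that reach 1 FPKM in 6 or more libraries was 0.26 log2 units higher under Gly, and 9.23% of all features were called lower beside the 32.3% called higher. After median-ratio scaling, which brings the median of all features from 0.05 to 0, 19.8% of features were higher and 18.3% lower, and 46 of the 47 genes were still called higher. The gene lost was Cks2 (0.55 log2 units as deposited, 0.25 after scaling, adjusted p = 0.26). In knockout, scaling moved the split of all features from 13.2% higher and 4.1% lower to 7.63% and 7.67%, and 42 of the 47 genes were called. The split under Gly by genotype moved from 4.28% higher and 12.2% lower in knockout to 6.34% and 8.70%, and 15 of the 47 genes were called lower. RNA was taken from whole kidney, so a higher share of cells in the cycle and more of each transcript per cell cannot be told apart.

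**Figure D1:**
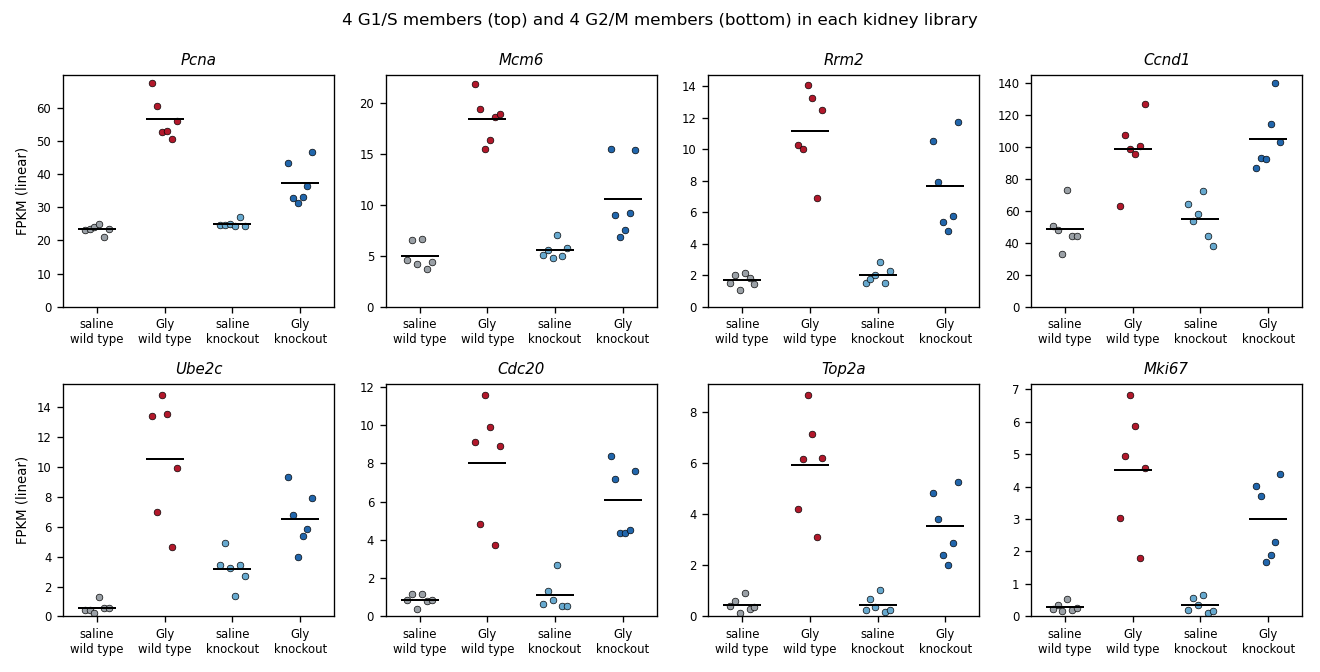
FPKM of 4 G1/S genes (top row) and 4 G2/M genes (bottom row) in each of the 24 kidney libraries, on linear axes that start at 0; points are libraries and lines are group means. For all of them except Ccnd1 the 6 Gly wild-type libraries lie above the 6 saline wild-type libraries, and Ube2c is also higher in saline knockout than in saline wild type.

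The G1 genes were at unlike levels before Gly. Ccnd1, which encodes cyclin D1, the partner of Cdk4 and Cdk6 in early G1, was the most abundant of the 47, at 33.2, 46.1 and 72.9 FPKM under saline and 63.2, 99.5 and 126 FPKM under Gly in wild type. Knockout Ccnd1 levels were 38.1, 55.7 and 72.0 FPKM under saline and 86.4, 97.7 and 139.6 FPKM under Gly. In wild type the groups overlapped between 63.2 FPKM, the lowest Gly library, and 72.9 FPKM, the highest saline library, and Gly knockout lay wholly above saline knockout. The rise was 2.02-fold in wild type (1.01 ± 0.18 SE on the log2 scale, adjusted p = 6.8e-05) and 1.91-fold in knockout (0.93 ± 0.18, adjusted p = 7.2e-04). Ccnd1 was the only gene of the 47 whose fitted difference between Gly knockout and Gly wild type was above 0, at 0.10 ± 0.18 SE (adjusted p = 0.80), and without Gly wild-type library 1 it was -0.02.

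The other G1 genes were low under saline. E2f1, a transcription factor that activates S-phase genes, was at 0.689, 0.897 and 0.949 FPKM under saline and 2.99, 3.79 and 4.72 FPKM under Gly in wild type. Knockout E2f1 levels were 0.770, 0.920 and 1.34 FPKM under saline and 1.45, 1.88 and 3.46 FPKM under Gly. All Gly libraries lay above all saline libraries in each genotype, and 2 of the 6 Gly knockout libraries fell inside the Gly wild-type range. E2f1 rose 4.36-fold in wild type (1.35 ± 0.13 SE, adjusted p = 1.0e-08) and 2.34-fold in knockout (0.69 ± 0.13, adjusted p = 4.3e-04). Its difference between Gly knockout and Gly wild type was -0.60 ± 0.13 SE (adjusted p = 0.0020). Ccne1, cyclin E1, which drives S-phase entry with Cdk2, was at 0.0790, 0.219 and 0.288 FPKM under saline and 1.05, 1.43 and 2.37 FPKM under Gly in wild type. Knockout Ccne1 levels were 0.131, 0.223 and 0.405 FPKM under saline and 0.205, 0.495 and 1.24 FPKM under Gly. The Gly knockout libraries reached from inside the saline range into the Gly wild-type range. Ccne1 rose 7.89-fold in wild type and 2.59-fold in knockout, where its adjusted p was 0.045 and rose above 0.05 in 16 of the 24 fits that each left out 1 library. Gly knockout was at 0.409 of Gly wild type, the lowest ratio among the 47 (-0.65 ± 0.12 SE, adjusted p = 8.9e-04).

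Mcm2 to Mcm7 encode the 6 subunits of the ring that unwinds DNA at the replication fork, and all of them changed. All 6 were called higher under Gly in each genotype, and all 6 were called lower in Gly knockout than in Gly wild type. Promoters of Mcm6 and Mcm7 are shown because 4 of the MCM genes, Mcm3, Mcm5, Mcm6 and Mcm7, hold an E2F match. Mcm2 held no E2F match, and no promoter sequence was at hand for Mcm4. The stretch is 200 bases before to 20 bases after the transcription start, from RefSeq on GRCm38.p6, with matches to E2F and CCAAT motifs in capitals, and both genes lie on the minus strand. Mcm6 is chr1:128359686-128359905 and Mcm7 is chr5:138171864-138172083.
Mcm6: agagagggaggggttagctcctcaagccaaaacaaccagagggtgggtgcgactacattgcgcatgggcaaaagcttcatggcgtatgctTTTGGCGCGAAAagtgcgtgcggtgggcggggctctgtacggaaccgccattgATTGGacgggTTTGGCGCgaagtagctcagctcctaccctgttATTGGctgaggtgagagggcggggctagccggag
Mcm7: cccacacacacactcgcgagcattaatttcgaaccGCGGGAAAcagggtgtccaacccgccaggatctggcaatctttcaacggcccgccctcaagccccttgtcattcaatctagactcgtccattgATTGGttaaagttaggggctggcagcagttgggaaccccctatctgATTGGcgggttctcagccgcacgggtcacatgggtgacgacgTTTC
The E2F letters searched, on either strand, were TTTGGCGC, TTTCCCGC, TTTGCCGC and TTTCGCGC. In Mcm6, E2F matches lie at -110 to -103, at -106 to -99 on the other strand, overlapping the former, and at -47 to -40. In Mcm7 a match lies at -165 to -158, and another at 17 to 24, which shares its last base with a CCAAT, runs past the printed end. A 300-base window (250 bases before and 50 after the start) was at hand for 12 of the 14 G1/S genes (any window of a gene counted), and 4 of those (33.3%) held an E2F match. Of the 27 G2/M genes with a window 1 did, Cdk1 (3.70%), and of all 27025 genes with a window 704 (2.61%). A match is a description of letters, and binding was not measured.

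Mcm6 was at 3.70, 4.47 and 6.66 FPKM under saline and 15.5, 18.8 and 21.9 FPKM under Gly in wild type. Knockout Mcm6 levels were 4.79, 5.35 and 7.02 FPKM under saline and 6.88, 9.13 and 15.5 FPKM under Gly. The Gly wild-type libraries stood clear of the saline libraries, but the lowest lay only just above the highest Gly knockout library, both at 15.5 FPKM as rounded. Gly knockout reached down into the saline knockout range. Mcm6 rose 3.68-fold in wild type (1.71 ± 0.17 SE, adjusted p = 2.0e-08) and 1.91-fold in knockout (0.77 ± 0.17, adjusted p = 0.0022). Its difference between the genotypes under Gly was -0.81 ± 0.17 SE (adjusted p = 0.0018). Mcm7 was at 5.73, 6.02 and 6.98 FPKM under saline and 12.3, 15.5 and 18.2 FPKM under Gly in wild type. Knockout Mcm7 levels were 5.59, 6.09 and 6.85 FPKM under saline and 8.12, 10.03 and 13.0 FPKM under Gly. Saline levels of Mcm7 were nearly alike in the genotypes, and Gly knockout fell between saline and Gly wild type, with its highest library inside the Gly wild-type range. Its ratio under Gly was 2.46 in wild type and 1.68 in knockout, with a genotype difference under Gly of -0.52 ± 0.09 SE (adjusted p = 5.0e-04). Mcm2 was at 2.90, 3.75 and 3.96 FPKM under saline and 8.75, 10.6 and 12.5 FPKM under Gly in wild type. Knockout Mcm2 levels were 3.06, 4.13 and 4.32 FPKM under saline and 4.62, 5.54 and 9.62 FPKM under Gly. Of the 6 Gly knockout libraries, 5 lay below the lowest Gly wild-type library, and Mcm2 rose 2.90-fold in wild type and 1.66-fold in knockout.

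Mcm5 and Mcm3 had the largest ratios of the 6 in wild type, from the lowest saline levels. Mcm5 rose 6.18-fold in wild type and 3.08-fold in knockout, Mcm3 7.32-fold and 3.35-fold, and Mcm4 3.57-fold and 1.83-fold. Under Gly, Mcm5 ranged from 8.36 to 10.6 FPKM in wild type and from 2.60 to 8.02 FPKM in knockout, with no overlap. Its genotype difference under Gly, -0.92 ± 0.16 SE (adjusted p = 3.9e-04), was the most negative of the 47 on the log2 scale. Mcm3 differed by -0.85 ± 0.16 SE and Mcm4 by -0.59 ± 0.13 SE, and the genotypes overlapped for both.

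Pcna and the nucleotide enzymes divided into genes that rose in both genotypes and genes called in wild type but not in knockout. Pcna, the clamp that holds DNA polymerase on its template, was at 21.1, 23.4 and 24.8 FPKM under saline and 50.5, 54.5 and 67.6 FPKM under Gly in wild type. Knockout Pcna levels were 24.4, 24.5 and 27.0 FPKM under saline and 31.3, 34.7 and 46.7 FPKM under Gly. The 3 ranges of saline, Gly knockout and Gly wild type did not overlap, and saline libraries of the genotypes met at 24.4 to 24.8 FPKM. Pcna rose 2.43-fold in wild type (1.24 ± 0.08 SE, adjusted p = 8.0e-11) and 1.49-fold in knockout (0.54 ± 0.08, adjusted p = 7.1e-05). The genotype difference under Gly was -0.60 ± 0.08 SE, with the smallest adjusted p of the 47 in that comparison (4.4e-05). Rrm2, the small subunit of ribonucleotide reductase, whose supply limits deoxynucleotide synthesis, was at 1.05, 1.67 and 2.17 FPKM under saline and 6.91, 11.4 and 14.1 FPKM under Gly in wild type. Knockout Rrm2 levels were 1.51, 1.88 and 2.87 FPKM under saline and 4.83, 6.85 and 11.7 FPKM under Gly. Gly and saline libraries did not overlap in either genotype, and Rrm2 rose 6.67-fold and 3.86-fold. Between the genotypes under Gly its difference of -0.52 ± 0.19 SE missed the threshold (adjusted p = 0.063).

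Tk1, thymidine kinase of the salvage pathway, was at 1.92, 3.81 and 5.53 FPKM under saline and 6.62, 9.54 and 15.0 FPKM under Gly in wild type. Knockout Tk1 levels were 2.66, 3.20 and 6.20 FPKM under saline and 2.89, 5.77 and 11.4 FPKM under Gly. The Gly knockout libraries ran from within the saline ranges of both genotypes into that of Gly wild type, which 2 of the 6 reached. Tk1 rose 2.73-fold in wild type (1.27 ± 0.25 SE, adjusted p = 2.4e-04), and its knockout ratio of 1.68 was not called (0.56 ± 0.25, adjusted p = 0.14). Rrm1, the large subunit of ribonucleotide reductase, averaged 3.20 ± 0.642 FPKM in saline wild type, 7.71 ± 1.18 in Gly wild type, 4.56 ± 0.560 in saline knockout and 5.65 ± 0.680 in Gly knockout (SD, n = 6 each). It rose 2.41-fold in wild type. In knockout, where the saline level was higher than in wild type, the difference was not called (0.26 ± 0.11 SE, adjusted p = 0.12). Tyms, thymidylate synthase, averaged 2.67 ± 0.281, 5.53 ± 1.35, 3.52 ± 0.669 and 4.03 ± 0.372 FPKM in the same order. It rose 2.07-fold in wild type and was not called in knockout (0.16 ± 0.11 SE, adjusted p = 0.37). Both were called lower in Gly knockout than in Gly wild type, with differences of -0.38 log2 units for Rrm1 and -0.36 for Tyms. The Tyms call was lost without Gly wild-type library 1, which holds its highest value, and without Gly knockout library 4 or 5, and the Rrm1 call without Gly knockout library 5. Tyms and Pcna have pseudogenes in the mouse genome, and the treatment of shared reads in the authors' counting is not stated in the labels or files.

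The G2/M genes started lower. Of the 33, 29 averaged under 1 FPKM in saline wild type and 1, Ttk, in Gly wild type, while of the 14 G1/S genes only E2f1 and Ccne1 averaged under 1 FPKM in saline wild type. All 33 were called higher under Gly in wild type and 32 in knockout, Cks2 being the exception. Promoters of Ccnb2, Cdc20, Ube2c and Top2a are shown because each holds a match to the letters of the cell cycle homology region (CHR). The CHR is the element through which MuvB complexes act on late cell cycle genes. The stretches again run from 200 bases before to 20 after the start (RefSeq, GRCm38.p6), with CHR and CCAAT matches in capitals. Ccnb2 is chr9:70421535-70421754, Cdc20 is chr4:118437324-118437543 and Top2a is chr11:99024170-99024389, all on the minus strand, and Ube2c is chr2:164769729-164769948 on the plus strand.
Ccnb2: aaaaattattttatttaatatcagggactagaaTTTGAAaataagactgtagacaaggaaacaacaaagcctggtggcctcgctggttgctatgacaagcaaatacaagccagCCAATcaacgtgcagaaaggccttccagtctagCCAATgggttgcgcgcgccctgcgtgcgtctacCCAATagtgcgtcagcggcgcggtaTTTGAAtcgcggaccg
Cdc20: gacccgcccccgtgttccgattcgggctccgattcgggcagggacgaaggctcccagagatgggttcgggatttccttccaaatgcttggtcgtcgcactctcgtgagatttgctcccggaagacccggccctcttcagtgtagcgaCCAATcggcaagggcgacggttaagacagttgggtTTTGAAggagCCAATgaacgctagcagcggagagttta
Ube2c: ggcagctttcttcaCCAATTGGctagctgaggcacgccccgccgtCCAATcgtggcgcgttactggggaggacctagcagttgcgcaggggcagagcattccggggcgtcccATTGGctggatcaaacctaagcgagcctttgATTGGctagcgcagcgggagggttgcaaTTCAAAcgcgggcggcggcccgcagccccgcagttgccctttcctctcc
Top2a: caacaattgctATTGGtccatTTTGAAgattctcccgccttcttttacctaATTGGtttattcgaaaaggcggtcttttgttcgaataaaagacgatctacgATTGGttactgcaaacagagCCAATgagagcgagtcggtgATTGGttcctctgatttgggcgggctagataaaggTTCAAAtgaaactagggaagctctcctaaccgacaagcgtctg
The CHR letters searched were TTTGAA, on either strand, so that TTCAAA is the same motif read on the other strand. Matches lie at 5 to 10 and at -167 to -162 in Ccnb2 and at -18 to -13 in Cdc20. Others lie at -29 to -24 on the other strand in Ube2c, and at -23 to -18 on the other strand and -179 to -174 in Top2a. As for E2F, a match describes letters, and binding was not measured. Of the 27 G2/M genes with a window, 21 (77.8%) held a CHR match, against 1 of 12 G1/S genes (Mcm2, 8.33%) and 20.2% of all genes with a window. CCAAT, read as ATTGG on the other strand and the site of the factor NF-Y, was in 24 of the 27 (88.9%), in 8 of the 12 (66.7%) and in 41.1% of all genes with a window. In Ube2c the CCAAT matches at -186 to -182 and -183 to -179 overlap. Windows were at hand for 39 of the 47 genes, and for 30 of those the bases after the start were found within a GENCODE transcript of the gene, Mcm5 and Mcm6 not among them.

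Among the cyclins and kinases of mitosis, the median gene rose 10.6-fold in wild type. Ccnb2, cyclin B2, was at 0.258, 0.567 and 0.855 FPKM under saline and 3.05, 7.96 and 12.3 FPKM under Gly in wild type. Knockout Ccnb2 levels were 0.153, 0.519 and 1.34 FPKM under saline and 3.23, 5.25 and 8.23 FPKM under Gly. The lowest Gly library of either genotype held more than 1.34 FPKM, the highest saline value, and the Gly ranges of the genotypes overlapped. Ccnb2 rose 13.8-fold in wild type (2.39 ± 0.26 SE, adjusted p = 8.7e-08) and 8.54-fold in knockout (1.98 ± 0.26, adjusted p = 1.1e-05), the largest rise in knockout on the log2 scale. Ccna2, cyclin A2, which acts in S phase and at mitotic entry, was at 0.242, 0.474 and 0.858 FPKM under saline and 3.003, 6.47 and 9.07 FPKM under Gly in wild type. Knockout Ccna2 levels were 0.360, 0.416 and 0.972 FPKM under saline and 2.32, 4.34 and 5.97 FPKM under Gly. Gly and saline did not overlap in either genotype, and Ccna2 rose 12.6-fold and 7.82-fold.

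Cks2, a small subunit of the cyclin-dependent kinases, was at 12.4, 14.2 and 16.5 FPKM under saline and 16.2, 21.6 and 34.3 FPKM under Gly in wild type. Knockout Cks2 levels were 10.1, 11.8 and 14.5 FPKM under saline and 12.9, 16.6 and 19.4 FPKM under Gly. It was the G2/M gene with the highest saline level after Stmn1, its groups overlapped in every comparison, and its ratio was 1.54 in wild type (adjusted p = 0.0035) and 1.34 in knockout (adjusted p = 0.077). The other genes of this set rose in both genotypes. Cdk1, the kinase that starts mitosis, rose 15.7-fold in wild type and 7.14-fold in knockout, and its partner cyclin B1, Ccnb1, 13.6-fold and 10.3-fold. Plk1 and Aurka, kinases of centrosomes and spindle poles, rose 8.56-fold and 6.03-fold in wild type and 6.02-fold and 2.94-fold in knockout. Foxm1, the transcription factor of the G2/M wave, averaged 0.274 ± 0.118 FPKM in saline wild type and 2.31 ± 0.881 FPKM in Gly wild type (SD, n = 6 each), a ratio of 8.42, against 6.00 in knockout. None of the 8 was called between Gly knockout and Gly wild type, where their ratios lay between 0.615 for Plk1 and 0.733 for Foxm1.

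Ube2c, Cdc20 and Cdca3 belong to the protein degradation of mitosis. Ube2c, the ubiquitin-conjugating enzyme of the anaphase-promoting complex, was at 0.253, 0.506 and 1.32 FPKM under saline and 4.64, 11.7 and 14.8 FPKM under Gly in wild type. Knockout Ube2c levels were 1.34, 3.34 and 4.94 FPKM under saline and 4.01, 6.31 and 9.35 FPKM under Gly. Every saline knockout library lay above every saline wild-type library, the only such case among the 47 (2.38% of all features), and Gly knockout overlapped saline knockout between 4.01 and 4.94 FPKM. Under Gly it rose 17.7-fold in wild type, the largest ratio of the 47 (2.79 ± 0.24 SE, adjusted p = 4.0e-09), and 2.06-fold in knockout (0.87 ± 0.24, adjusted p = 0.016). Cdc20, the activator of the same complex in anaphase, was at 0.362, 0.851 and 1.18 FPKM under saline and 3.73, 9.01 and 11.6 FPKM under Gly in wild type. Knockout Cdc20 levels were 0.521, 0.740 and 2.69 FPKM under saline and 4.36, 5.85 and 8.36 FPKM under Gly. Gly and saline did not overlap in either genotype, and Cdc20 rose 9.20-fold and 5.53-fold. Cdca3, a substrate adaptor that helps remove the mitotic inhibitor Wee1, was at 0.441, 1.22 and 1.60 FPKM under saline and 3.12, 5.92 and 8.95 FPKM under Gly in wild type. Knockout Cdca3 levels were 0.323, 0.769 and 1.57 FPKM under saline and 2.53, 3.60 and 6.50 FPKM under Gly. It rose 5.56-fold and 5.17-fold with no overlap between saline and Gly in either genotype.

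The chromosomal passenger complex corrects faulty attachments of chromosomes to the spindle, and its members Birc5, Cdca8 and Aurkb were called lower in Gly knockout than in Gly wild type. Birc5, survivin, was at 0.342, 0.671 and 0.831 FPKM under saline and 4.38, 7.19 and 15.1 FPKM under Gly in wild type. Knockout Birc5 levels were 0.113, 0.431 and 1.04 FPKM under saline and 2.15, 3.09 and 6.90 FPKM under Gly. Gly and saline did not overlap in either genotype, and 4 of the 6 Gly knockout libraries lay below the lowest Gly wild-type library. Birc5 rose 12.7-fold in wild type and 7.81-fold in knockout, and the genotype difference under Gly was -0.88 ± 0.25 SE (adjusted p = 0.020), a call lost without Gly knockout library 3, 4 or 5. Cdca8, borealin, was at 0.437, 0.758 and 1.06 FPKM under saline and 3.39, 5.01 and 6.60 FPKM under Gly in wild type. Knockout Cdca8 levels were 0.516, 0.755 and 0.886 FPKM under saline and 1.74, 2.44 and 4.32 FPKM under Gly. Its ratio was 6.39 in wild type and 3.82 in knockout, with a genotype difference under Gly of -0.68 ± 0.16 SE (adjusted p = 0.0049) and overlapping ranges. Aurkb, the kinase of the complex, was at 0.150, 0.274 and 0.479 FPKM under saline and 2.05, 4.22 and 5.04 FPKM under Gly in wild type. Knockout Aurkb levels were 0, 0.249 and 0.751 FPKM under saline and 1.12, 2.01 and 3.72 FPKM under Gly, with 1 saline knockout library at 0. It rose 13.9-fold and 8.04-fold and differed between the genotypes under Gly by -0.64 ± 0.18 SE (adjusted p = 0.015). When the fit held the 12 Gly libraries alone, none of the 3 was called between genotypes (adjusted p 0.14, 0.065 and 0.10).

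The spindle checkpoint kinases rose from near 0. Bub1 rose 15.4-fold in wild type and 8.98-fold in knockout, Ttk (Mps1) 12.9-fold and 10.6-fold, and Bub1b (BubR1) 8.40-fold and 3.55-fold. Their means in Gly wild type were 1.33, 0.897 and 2.28 FPKM. Bub1b was the only one of these called between Gly knockout and Gly wild type (-0.44 ± 0.14 SE, adjusted p = 0.032), and that call was lost without Gly wild-type library 2, 3 or 4 or without Gly knockout library 2, 3 or 4. Cenpa, the histone that marks centromeres, was at 0.410, 0.693 and 1.204 FPKM under saline and 1.83, 4.87 and 7.04 FPKM under Gly in wild type. Knockout Cenpa levels were 0.763, 0.935 and 1.04 FPKM under saline and 2.03, 3.01 and 3.97 FPKM under Gly. Saline and Gly libraries were apart in both genotypes, and Cenpa rose 6.63-fold and 3.22-fold. Cenpe, a kinetochore motor, was at 0.177, 0.246 and 0.310 FPKM under saline and 0.398, 1.11 and 1.98 FPKM under Gly in wild type. Knockout Cenpe levels were 0.0707, 0.0898 and 0.298 FPKM under saline and 0.563, 0.763 and 1.02 FPKM under Gly. Gly and saline did not overlap in either genotype. Its ratio was larger in knockout (5.70) than in wild type (4.80), which among the 47 was also so for Nusap1, and the difference between the 2 responses was not called for either gene. Cenpf, a large kinetochore protein, was at 0.0203, 0.0810 and 0.161 FPKM under saline and 0.328, 1.09 and 1.88 FPKM under Gly in wild type. Knockout Cenpf levels were 0.0327, 0.104 and 0.262 FPKM under saline and 0.436, 0.825 and 1.18 FPKM under Gly, and it rose 12.2-fold and 6.42-fold with no overlap of saline and Gly.

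Stmn1 stood apart from the other genes of the spindle set by its level. It encodes stathmin, which destabilises microtubules, and was at 21.9, 22.9 and 26.1 FPKM under saline and 61.8, 75.7 and 157 FPKM under Gly in wild type. Knockout Stmn1 levels were 24.4, 26.4 and 31.8 FPKM under saline and 36.2, 49.0 and 62.0 FPKM under Gly. Gly wild-type library 1, at 157 FPKM, lay far above the other 5, and only the highest Gly knockout library reached the Gly wild-type range. Stmn1 rose 3.73-fold in wild type (1.79 ± 0.16 SE, adjusted p = 6.9e-09) and 1.80-fold in knockout (0.81 ± 0.16, adjusted p = 0.0011), and the genotype difference under Gly was -0.76 ± 0.16 SE (adjusted p = 0.0024). Nusap1, which binds spindle microtubules near chromosomes, was at 1.02, 1.28 and 1.54 FPKM under saline and 2.16, 4.15 and 5.36 FPKM under Gly in wild type. Knockout Nusap1 levels were 0.335, 0.595 and 1.19 FPKM under saline and 1.37, 2.46 and 4.18 FPKM under Gly. Saline knockout lay low, at 0.510 of saline wild type (adjusted p = 0.13), and the log2 rise was alike in both genotypes, 1.09 ± 0.18 SE and 1.10 ± 0.18 SE. Tpx2, the activator of Aurora A on the spindle, was at 0.0304, 0.219 and 0.415 FPKM under saline and 1.97, 3.25 and 5.36 FPKM under Gly in wild type. Knockout Tpx2 levels were 0.104, 0.178 and 0.606 FPKM under saline and 1.43, 2.34 and 3.32 FPKM under Gly, and it rose 17.2-fold and 8.87-fold with no overlap of saline and Gly. Hmmr, another microtubule-binding protein, and the kinesins Kif11 and Kif4 rose 10.3-fold, 8.10-fold and 13.2-fold in wild type and 8.62-fold, 5.69-fold and 6.75-fold in knockout. Kif4 and Ccnb1 have pseudogenes, and their levels are uncertain to that extent.

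The genes of cytokinesis, which divides the daughter cells, were all called higher under Gly in each genotype and none was called between the genotypes under Gly. Prc1, which bundles the microtubules of the central spindle, was at 0.158, 0.366 and 0.776 FPKM under saline and 2.46, 5.59 and 7.62 FPKM under Gly in wild type. Knockout Prc1 levels were 0.163, 0.456 and 0.820 FPKM under saline and 2.07, 3.45 and 5.29 FPKM under Gly. It rose 13.5-fold and 7.24-fold, and no saline library reached a Gly library of its genotype. Racgap1 and Kif23 form the centralspindlin complex. Racgap1 was at 0.374, 0.612 and 0.858 FPKM under saline and 1.71, 4.94 and 6.30 FPKM under Gly in wild type. Knockout Racgap1 levels were 0.419, 0.714 and 1.38 FPKM under saline and 2.11, 2.98 and 4.22 FPKM under Gly. Kif23 was at 0.737, 0.772 and 1.17 FPKM under saline and 1.70, 3.28 and 4.36 FPKM under Gly in wild type. Knockout Kif23 levels were 0.605, 0.985 and 1.35 FPKM under saline and 1.64, 2.40 and 3.16 FPKM under Gly. Neither gene had overlapping saline and Gly ranges in a genotype, and the ratios were 7.63 and 3.78 for Racgap1 and 3.62 and 2.39 for Kif23. Kif20a, a kinesin of the midzone, rose 7.43-fold in wild type and 5.22-fold in knockout and had the smallest genotype difference under Gly of the G2/M genes (-0.11 ± 0.17 SE). Anln, the anillin of the contractile ring, rose 10.04-fold and 5.81-fold.

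Mki67 and Top2a are used widely as markers of cycling cells. Mki67, the Ki-67 protein that coats mitotic chromosomes, was at 0.182, 0.247 and 0.543 FPKM under saline and 1.80, 4.76 and 6.81 FPKM under Gly in wild type. Knockout Mki67 levels were 0.102, 0.285 and 0.653 FPKM under saline and 1.68, 3.01 and 4.39 FPKM under Gly. Every Gly library lay above every saline library, and 5 of the 6 Gly knockout libraries fell inside the Gly wild-type range. Mki67 rose 15.4-fold in wild type (2.02 ± 0.21 SE, adjusted p = 5.3e-08) and 8.74-fold in knockout (1.54 ± 0.21, adjusted p = 1.9e-05), with a genotype difference under Gly of -0.44 ± 0.21 SE (adjusted p = 0.18). Top2a, the topoisomerase that untangles sister chromatids, was at 0.133, 0.385 and 0.901 FPKM under saline and 3.12, 6.19 and 8.67 FPKM under Gly in wild type. Knockout Top2a levels were 0.182, 0.315 and 1.02 FPKM under saline and 2.01, 3.35 and 5.26 FPKM under Gly. It rose 13.2-fold and 7.71-fold, again without overlap of saline and Gly. Its genotype difference under Gly was -0.61 ± 0.21 SE (adjusted p = 0.047), and leaving out 1 library in turn lost that call in 17 of 24 fits.

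**Figure D2:**
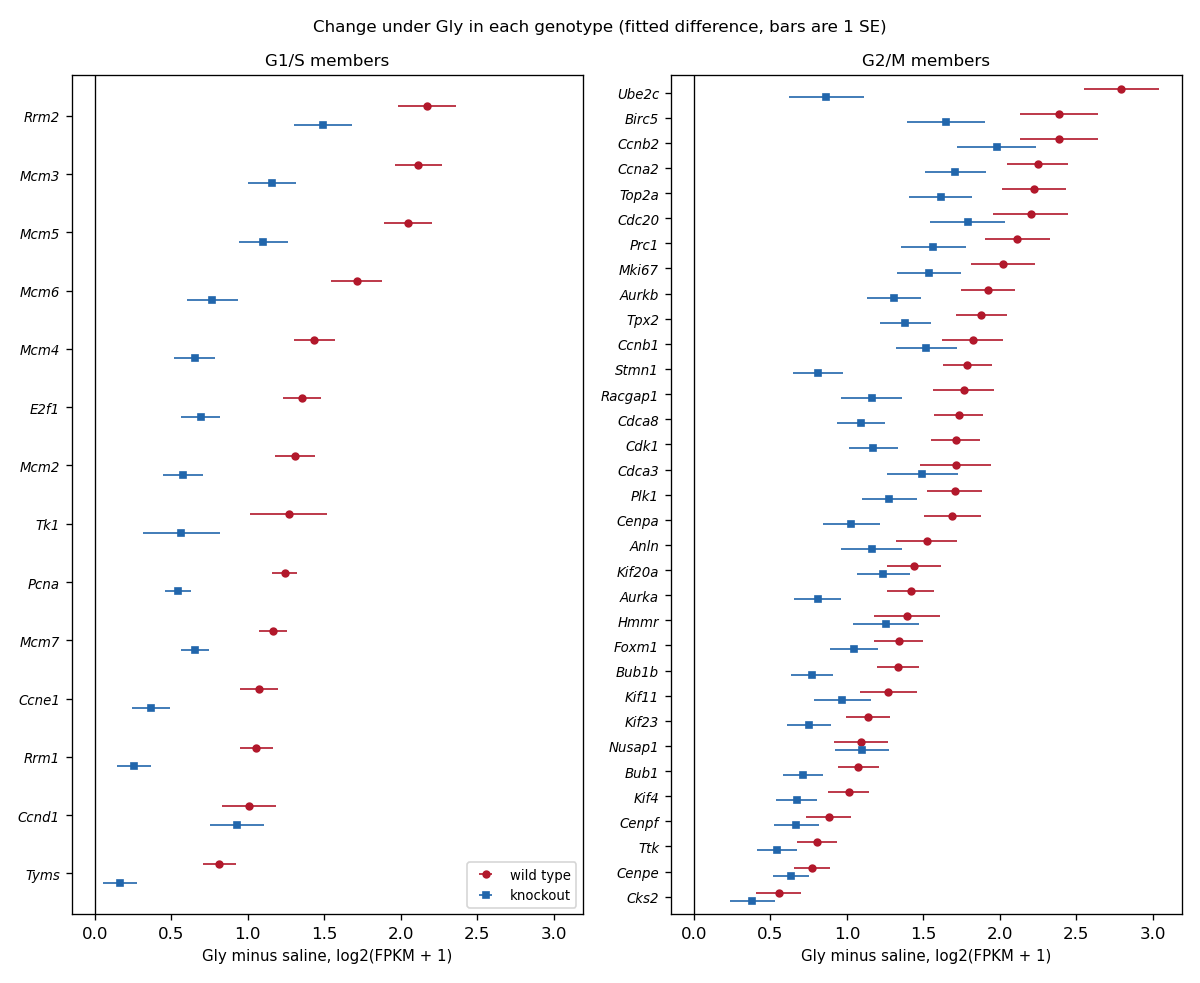
Fitted change under Gly (Gly minus saline, log2(FPKM + 1)) of each of the 14 G1/S genes (left) and 33 G2/M genes (right) in wild type (red circles) and knockout (blue squares), with bars of 1 SE. All points lie above 0, and the knockout point lies to the left of the wild-type point for every gene except Nusap1, where they coincide.

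The response of the knockout was smaller for the median gene of each phase. For G1/S genes the median log2 change was 1.29 in wild type and 0.65 in knockout, and for G2/M genes 1.70 and 1.16. Of the 47 genes, 45 in wild type had Gly libraries all above saline libraries, beside 19.4% of all features, and Ccnd1 and Cks2 were the others. In knockout 39 did, beside 9.24% of all features. Rrm1, Tyms, Tk1 and Cks2 were the genes not called in knockout. Without the 5 saline knockout libraries that lacked Y-linked transcripts, 1 saline knockout library was left, its spread was taken from the other groups, and 0 of the 47 were called, while the median log2 change was 0.81. That remaining library, number 4, was the highest of its group for 30 of the 47 genes. Gly knockout can also be set against saline wild type, where all libraries had Y-linked transcripts. In that comparison 45 of the 47 were higher, beside 22.1% of all features, with a median log2 difference of 1.05, and Tk1 and Cks2 were not called. The 2 genotypes differ there as well as the treatment.

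Whether the genotypes differed under Gly was read in each phase. Of the 14 G1/S genes 11 were called lower in Gly knockout, all except Ccnd1, Rrm2 and Tk1. Of the 33 G2/M genes 6 were called lower, Birc5, Stmn1, Cdca8, Aurkb, Top2a and Bub1b, and of all features 12.2%. The G2/M count was less stable: leaving out 1 library gave 3 to 21 of the 33, against 9 to 13 of the 14 G1/S genes. The ratio of the median gene was nearly alike, 0.618 for G1/S and 0.660 for G2/M, and a difference between the phases was not tested. The libraries of Gly wild type varied more for G2/M genes, with a median SD of 0.45 log2 units against 0.20 for G1/S genes, and in Gly knockout these were 0.38 and 0.33. Complete separation, with every Gly knockout library below every Gly wild-type library, occurred for 4 of the 47, Mcm5, Mcm6, Pcna and Tyms, beside 3.64% of all features.

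**Figure D3:**
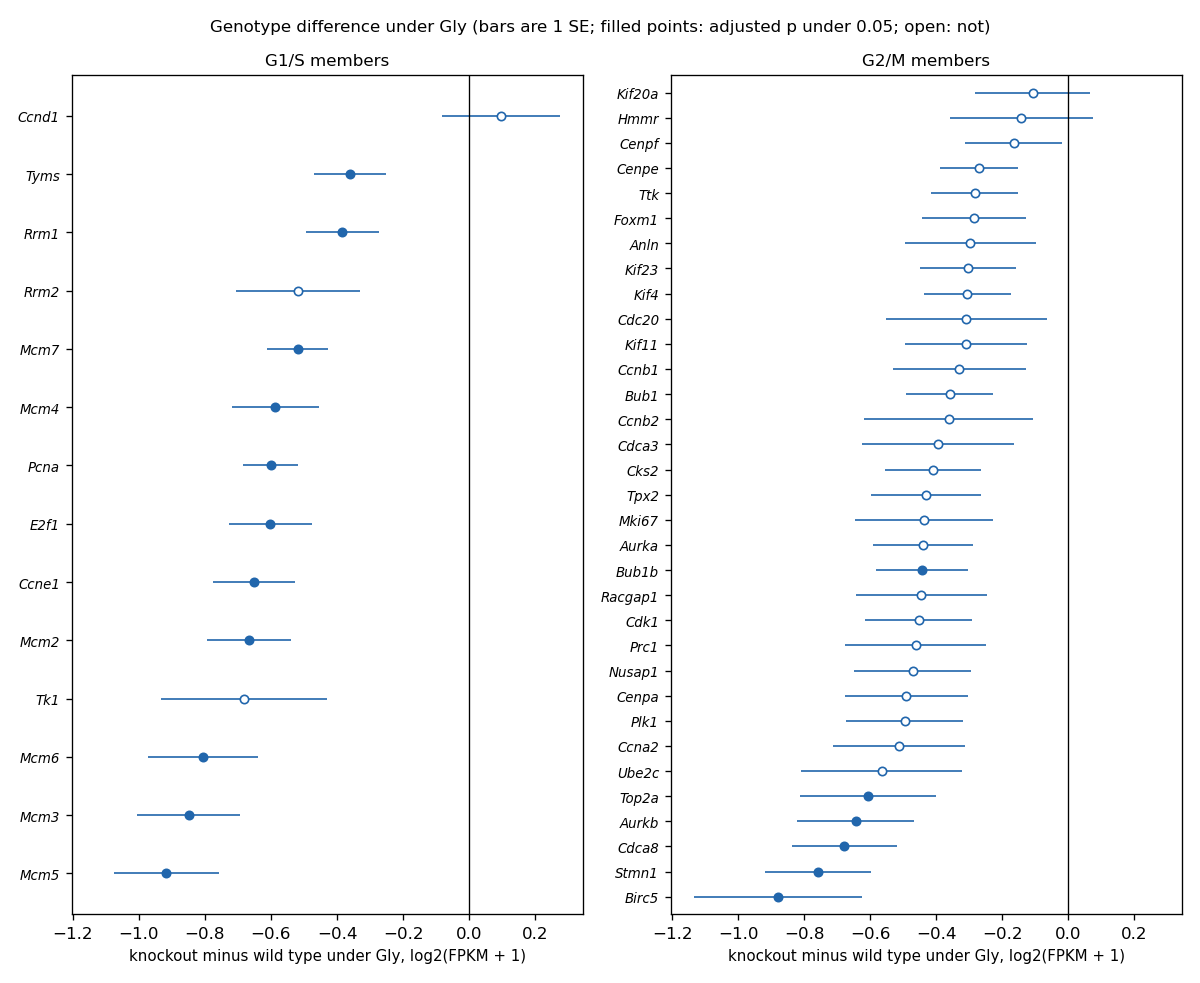
Fitted difference between Gly knockout and Gly wild type (knockout minus wild type, log2(FPKM + 1)) of each G1/S gene (left) and G2/M gene (right), with bars of 1 SE; filled points have an adjusted p under 0.05. All points except Ccnd1 lie below 0, 11 of 14 are filled on the left and 6 of 33 on the right, beside 12.2% of all features called lower, and the 6 become 21 without Gly wild-type library 5.

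The count of 17 changed with single libraries and with the fit. Without Gly wild-type library 5, 34 of the 47 were called lower, 13 of G1/S and 21 of G2/M, beside 15.4% of all features. Without Gly knockout library 6, 28 were, 13 of G1/S and 15 of G2/M, beside 12.3%. Without Gly knockout library 1, 24 were, 12 of each phase, beside 11.2%. Without Gly knockout library 3 or 4 the G2/M count fell to 3, and with a pseudocount of 0.1 it was 2. A fit of the 12 Gly libraries alone called 9, all of G1/S, beside 5.13% of all features. Weights that reduce the influence of variable libraries gave 39, 12 of G1/S and 27 of G2/M, beside 16.2%. No called difference changed sign in these fits.

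The interaction asks whether the response to Gly itself differed between the genotypes. It was called for 13 of the 47, each with a smaller response in knockout, beside 10.7% of all features. Among them were 11 G1/S genes, E2f1, Ccne1, Mcm2 to Mcm7, Pcna, Rrm1 and Tyms, and the G2/M genes Ube2c and Stmn1. The difference between the responses was -0.70 ± 0.12 log2 units SE for Pcna (adjusted p = 5.4e-04), -0.96 ± 0.22 for Mcm3 (adjusted p = 0.0053) and -1.93 ± 0.35 for Ube2c (adjusted p = 8.3e-04). Ube2c was 1.36 log2 units higher in knockout under saline, and its genotype difference under Gly, -0.56, was not called. Median-ratio scaling left 10 calls and moved the split of all features from 3.4% higher and 10.7% lower to 5.599% and 6.05%. Saline knockout enters this comparison, and without its 5 libraries lacking Y-linked transcripts only its library 4 is left. The difference between the responses was then -0.67 for Pcna, -1.18 for Mcm3 and -1.14 for Ube2c. Without Gly wild-type library 5 the interaction was called for 23 of the 47.

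Under saline, Ube2c in knockout was 5.34 times the wild-type level (1.36 ± 0.24 SE, adjusted p = 0.0016). The values were 1.34, 3.34 and 4.94 FPKM in knockout and 0.253, 0.506 and 1.32 in wild type, with no overlap. The saline knockout library with Y-linked transcripts, number 4, was the lowest of its group at 1.34 FPKM, next to the highest saline wild-type library at 1.32 FPKM. The Ube2c call held in each of the 24 fits that left out 1 library, and with library 4 as the only saline knockout library the difference was 0.58 (adjusted p = 1). Rrm1 was 1.43 times the wild-type level (0.42 ± 0.11 SE, adjusted p = 0.028), and library 4 was again the lowest of its group, at 3.64 FPKM, inside the wild-type range. The Rrm1 call was lost without saline wild-type library 1 or 3 or saline knockout library 1, 3, 5 or 6, and with library 4 alone the difference was 0.16 (adjusted p = 1). Nusap1 was also called, lower in knockout, after quantile normalization, with a pseudocount of 0.1, with the saline groups alone in the fit and with weighted libraries. The median-ratio split of all features was 2.82% higher and 3.21% lower, against 3.37% and 2.13% as deposited.

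Within groups, the same libraries were high or low for most of the 47 genes. Gly wild-type library 5 was the lowest of its group for 40 of them, 32 of the 33 G2/M genes among them, while it was the lowest for 42.8% of the 13020 features above. Gly wild-type library 3 was the highest for 27 genes, 26 of them G2/M, and for 3.91% of those features. In Gly knockout, library 6 was the highest for 36 genes and library 1 for 9, beside 21.1% and 13.6% of those features. Libraries 4 and 3 were the lowest for 22 and 19, beside 17.8% and 9.63%. In saline wild type library 4 was the highest for 29 genes and library 3 the lowest for 27, beside 11.3% and 23.1% of those features. The mean log2(FPKM + 1) of the G2/M genes ran from 1.67 to 2.79 in Gly wild type and from 1.56 to 2.32 in Gly knockout, while that of the G1/S genes ran from 3.38 to 3.69 and from 2.72 to 3.48.

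**Figure D4:**
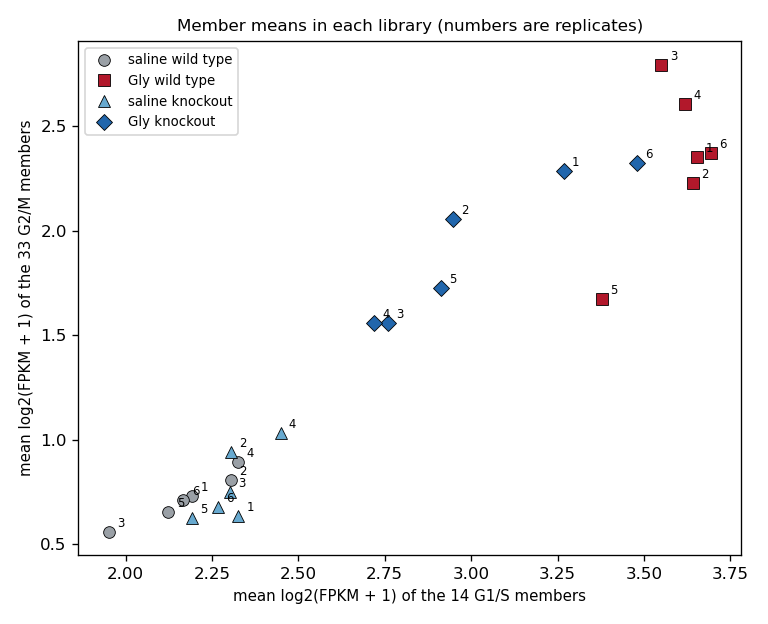
Mean log2(FPKM + 1) of the 33 G2/M genes (vertical) against that of the 14 G1/S genes (horizontal) in each library, with marker shape and colour for the group and the replicate number beside it. Saline libraries lie at the lower left, Gly knockout libraries run in a line towards Gly wild type with libraries 1 and 6 nearest to it, and Gly wild-type library 5 lies below its group.

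Markers of other cell types that a kidney sample can hold differed in direction. Of 4 endothelium markers, 0 were called under Gly in either genotype and 0 between the genotypes under Gly, while 1 was higher in saline knockout than in saline wild type. Of 4 red cell precursor markers, 4 were called lower under Gly in wild type and 3 in knockout, beside 9.23% and 4.1% of all features. Between the genotypes under Gly 0 of those 4 were called. The 10 macrophage and monocyte markers summed to 27.3 to 41.1 FPKM in saline wild type, 139 to 378 in Gly wild type, 31.4 to 54.3 in saline knockout and 86.6 to 168 in Gly knockout. All 10 were called higher under Gly in wild type and 8 in knockout, and 9 of 10 were called lower in Gly knockout than in Gly wild type. For this and the lists that follow, 32.3% of all features were higher under Gly in wild type and 13.2% in knockout. Between the genotypes under Gly 12.2% were lower in knockout. The 6 fibroblast and myofibroblast markers summed to 31.0 to 38.4, 140.2 to 307, 37.7 to 48.3 and 96.6 to 251 FPKM in the same order. Of these, 6 of 6 were higher under Gly in each genotype and 3 of 6 lower in Gly knockout than in Gly wild type. The 5 markers of injured tubule summed to 3.23 to 9.42, 544 to 734, 4.38 to 9.34 and 125 to 419 FPKM. Under Gly 5 of 5 were higher in each genotype, and 4 of 5 were lower in Gly knockout than in Gly wild type. Gly wild-type library 5 had the lowest macrophage and fibroblast sums of its group, 139 and 140.2 FPKM, but not the lowest injured tubule sum, at 613 FPKM. Gly wild-type library 3, the highest for most G2/M genes, had the lowest injured tubule sum of its group, 544 FPKM, and a macrophage sum of 248 FPKM, below the group's median of 261. Gly knockout library 6 had the highest of all 3 sums in its group. The 10 markers of T, B and NK cells summed to 0.876 to 1.64 FPKM in saline wild type, 2.39 to 6.48 in Gly wild type, 1.35 to 2.81 in saline knockout and 0.952 to 2.52 in Gly knockout. Of these, 6 were called higher under Gly in wild type and 0 in knockout, and 2 were called lower in Gly knockout than in Gly wild type. The 6 neutrophil markers summed to 0.470 to 3.03, 2.496 to 11.5, 0.379 to 1.23 and 2.39 to 14.5 FPKM in the same order of groups. In each genotype 3 of the 6 were called higher under Gly, and 1 was called lower in Gly knockout than in Gly wild type. S100a9 and S100a8 reached 9.44 and 4.25 FPKM, Csf3r was above 0 in every library, and Mpo, Elane and Ly6g were at 0 in 22, 20 and 21 of the 24. Mitochondrial transcripts took 29.6% of FPKM in saline wild type, 19.5% in Gly wild type, 30.6% in saline knockout and 23.9% in Gly knockout, and ribosomal protein transcripts 2.70%, 6.09%, 2.93% and 4.33%. The part of these cell types and shares in the cell cycle values was not tested.

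A further 61 genes of the cell cycle, in 7 lists, were counted beside the 47. Under Gly 48 of the 61 were higher in wild type and 1 lower, beside 32.3% and 9.23% of all features. In knockout 37 were higher and 3 lower, beside 13.2% and 4.1%, and the 3 were Spc25, Wee1 and Pttg1, named after their values were seen. Between Gly knockout and Gly wild type 26 were lower and 2 higher, beside 12.2% and 4.28% of all features. The same shares apply to the counts of each list below, and the lists are small. The 1 gene lower under Gly in wild type was Rbl2, the pocket protein p130 of resting cells, named after its values were seen, at 15.4, 18.2 and 20.02 FPKM under saline and 6.58, 12.9 and 15.8 under Gly (-0.62 ± 0.15 SE, adjusted p = 0.0017). Rbl2 and the kinetochore gene Spc25 were the 2 genes higher in Gly knockout than in Gly wild type (0.45 ± 0.15 and 0.44 ± 0.14 SE). Under saline 3 of the 61 were called, all higher in knockout, beside 3.37% of all features called higher. Spc25 was 1 of them, with the largest difference, 1.02 log2 units, so its values under Gly in knockout start from a higher saline level. Genotype and the lack of Y-linked transcripts in most saline knockout libraries cannot be told apart there.

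Origin licensing and firing genes load and start the MCM ring. Of the 13 listed, 11 were higher under Gly in wild type, 8 in knockout, and 9 were lower in Gly knockout than in Gly wild type. Cdc6, a loader of the ring, was at 0.0377, 0.0722 and 0.106 FPKM under saline and 0.876, 0.965 and 1.09 FPKM under Gly in wild type. Knockout Cdc6 levels were 0.0332, 0.0807 and 0.133 FPKM under saline and 0.229, 0.352 and 0.801 FPKM under Gly. It rose 13.0-fold in wild type and 4.95-fold in knockout, and all Gly knockout libraries lay below all Gly wild-type libraries (-0.47 ± 0.06 SE, adjusted p = 3.5e-05). Cdc45, part of the active helicase, rose 3.72-fold and 1.94-fold, and Cdc7, the kinase that fires origins, 6.92-fold and 2.30-fold.

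In the list of kinetochore and checkpoint genes, 9 of 10 were higher under Gly in each genotype, and 7 were lower and 1 higher in Gly knockout than in Gly wild type. Chek1, the kinase of the replication checkpoint, was at 0.0743, 0.140 and 0.192 FPKM under saline and 1.32, 1.64 and 1.90 FPKM under Gly in wild type. Knockout Chek1 levels were 0.107, 0.145 and 0.225 FPKM under saline and 0.338, 0.734 and 0.909 FPKM under Gly. Gly wild type lay above every other library, and the genotype difference under Gly was -0.63 ± 0.07 SE (adjusted p = 6.4e-06). Spc24 and Nuf2, of the outer kinetochore, rose 3.83-fold and 17.1-fold in wild type and 2.36-fold and 6.69-fold in knockout. All 5 condensin genes, which compact chromosomes, were higher in each genotype, and Ncapg and Ncaph were lower in Gly knockout than in Gly wild type, at 0.513 and 0.573 of its level. Of the 8 genes of mitotic entry and exit 6 were higher in each genotype and 2 were lower in Gly knockout than in Gly wild type, Pkmyt1, an inhibitory kinase of Cdk1 (-0.67 ± 0.09 SE), and Ccnf, cyclin F (-0.34 ± 0.11 SE).

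Regulators of G1 moved in part. Of 8 inhibitors of cyclin-dependent kinases 6 were higher under Gly in wild type and 3 in knockout, beside 32.3% and 13.2% of all features. Cdkn1a, the p21 protein that halts the cycle after damage, was at 1.46, 2.81 and 3.02 FPKM under saline and 18.7, 20.7 and 27.7 FPKM under Gly in wild type. Knockout Cdkn1a levels were 2.47, 3.77 and 4.61 FPKM under saline and 5.38, 9.86 and 13.6 FPKM under Gly. Saline and Gly did not overlap in either genotype, and neither did Gly knockout and Gly wild type. Cdkn1a rose 8.28-fold in wild type (2.65 ± 0.16 SE, adjusted p = 1.5e-11) and 2.63-fold in knockout (1.16 ± 0.16, adjusted p = 1.9e-05), and it was the 1 inhibitor of the 8 called lower in Gly knockout than in Gly wild type (-1.10 ± 0.16 SE, adjusted p = 6.9e-05). Cdkn3, a phosphatase that acts on cyclin-dependent kinases, and Cdkn2c (p18) rose 21.1-fold and 1.80-fold in wild type. Of 7 further G1 cyclins, kinases and phosphatases 5 were higher in wild type and 3 in knockout, and Cdk4, Ccne2 and Cdk6 were lower in Gly knockout than in Gly wild type, with differences of -0.52, -0.50 and -0.49 log2 units. Of 10 other genes of the RB and E2F family 6 were higher and 1 lower under Gly in wild type, with E2f4, a repressor E2F of resting cells, at 10.9 ± 0.984 FPKM under saline and 18.9 ± 1.24 FPKM under Gly (SD, n = 6 each).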

How the data were processed

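RNA of mouse kidney, extracted with Trizol and made into 24 libraries with a TruSeq RNA kit per the labels' protocols, was measured as FPKM. The authors deposited 1 table of FPKM values per gene and library, and the submitters' processing notes name Bowtie 0.12.2 and the builds mm8 and mm9, with no role given. FPKM holds no read counts. Whole reads could not be recovered from the low values, so depth and counting error are unknown. Groups came from the sample labels, and no library was a copy of another.

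Values were taken as log2(FPKM + 1) and tested with limma 3.58.1 in R 4.3.3 (trend, all 24 libraries in 1 fit, no filter, so that every one of the 47 genes was tested). Of 28450 features, 3643 were at 0 in every library and 24807 were tested. On data simulated for Gly against saline in wild type (24807 features), 94% of changes of 1 and 92% of changes of -1 log2 units were called, 64% of changes of 0.5 and 60% of changes of -0.5, with 5 false calls among 24607. Nlrp3 was compared with a two-sided exact permutation test.

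The 47 genes and the other lists were chosen with earlier results of these data known. Every one of the 47 may be named, values per group were given for the 3 highest genes of each role by mean FPKM (both chromosome proteins), and up to 3 genes of each further list were named by smallest p in wild type, with Cdkn1a, Nlrp3 and the Y-linked genes. Other genes named are marked as such. Alternatives were other scalings, pseudocounts of 0.1 and 0.5, a filter of 1 FPKM in 6 libraries, other sets and weights of libraries, the replicate number as a block and leaving out each library. Promoters were taken from RefSeq (GRCm38.p6) and matched by symbol.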

Additional observations from a re-analysis of the deposited data

Results flagged for a closer look

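For 10 of 188 gene and group pairs, 1 library lay far from the other 5, with a gap to its neighbour above 0.625 of the group's range. Chance gives about 1 in 20. In saline wild type, library 3 was lowest for E2f1 (0.688 of the range), Mcm2 (0.703) and Kif11 (0.729), and library 4 was highest for Ube2c (0.715), at 1.32 FPKM with the next at 0.556 FPKM. In saline knockout, library 4, the only one of its group with Y-linked transcripts, was highest for E2f1 (0.652), Tk1 (0.652) and Cdk1 (0.687), and library 5 for Pcna (0.741). In Gly wild type, library 1 was highest for Tyms (0.859), at 8.25 FPKM with the next at 5.25 FPKM, and for Stmn1 (0.778), at 157 FPKM with the next at 83.0 FPKM. That library also had the highest share of ribosomal protein transcripts, 9.49% of FPKM, and its part in these values was not tested.

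The response to Gly differed between the genotypes, by limma's interaction, for 13 genes. The knockout change minus the wild-type change was -1.93 log2 units for Ube2c, whose saline level was higher in knockout, and -0.98 for Stmn1. For the MCM genes it was -0.73 for Mcm2, -0.96 for Mcm3, -0.78 for Mcm4, -0.95 for Mcm5, -0.94 for Mcm6 and -0.51 for Mcm7. It was -0.66 for E2f1, -0.71 for Ccne1, -0.70 for Pcna, -0.80 for Rrm1 and -0.65 for Tyms. All 13 rest on saline knockout libraries of which 5 of 6 lack Y-linked transcripts. Without those 5 libraries only saline knockout library 4 is left. The difference stayed below 0 for all 13, from -1.25 for Mcm6 to -0.29 for Tyms.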

How the results depend on the processing

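The count of 47 genes higher under Gly in wild type was 46 after median-ratio or quantile scaling and 47 under the other alternatives run, each of the 24 fits without 1 library included, except the filter of 1 FPKM in 6 libraries. That filter keeps 45 of the 47, and since 31 of the 47 averaged under 1 FPKM in saline wild type and 1 in Gly wild type, most pass through the Gly libraries. Counts under it therefore support neither a rise under Gly nor a lower level in Gly knockout than in Gly wild type. Genes lower in Gly knockout than in Gly wild type numbered 17, against 28 with that filter (21.4% of the features it keeps), 9 with only the groups compared and 39 with weighted libraries. Those lower in the interaction numbered 13, against 33 with weighted libraries. Under saline, weighted libraries called 4 of the 47 in place of 2. Without the saline knockout libraries lacking Y-linked transcripts, 0 of the 47 were called in knockout, under saline and in the interaction, and the features called were 757, 118 and 149, against 4280, 1363 and 3500. These fits hold 1 saline knockout library. All features called under saline were 2155 with only the groups compared and 4909 with weighted libraries, those between the genotypes under Gly were 1788 with only the groups compared (4098 in the report's fit), and those in the interaction 6558 with weighted libraries. The cause of the other changes was not tested.

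With each library left out in turn, the genes called ranged from 42 to 44 for Gly in knockout, 1 to 3 under saline, 13 to 34 between the genotypes under Gly, 13 to 23 in the interaction and 45 to 46 for Gly knockout against saline wild type. The 34 and 23 came without Gly wild-type library 5, and 28 without Gly knockout library 6. Features called under saline ranged from 877 (without saline knockout library 1) to 2360 (without library 4), with 899 without library 6. The Nlrp3 difference under saline ranged from 0.0127 to 0.0490 FPKM and was highest without saline knockout library 4. The replicate numbers did not pair the libraries (same-numbered libraries of different groups correlated at -0.37 to 0.30, and 2 of 24 correlated best with their own number). With the replicate block, 47, 43, 2, 16, 13 and 45 genes were called in the order of comparisons used above, wild type first, and 10174, 4021, 1147, 3773, 3199 and 6380 features. Top2a was the 1 gene whose call changed. Of single genes' results without 1 library, 6654 kept direction and side of the threshold, 62 gained and 52 lost the call, and under the other alternatives these were 2321, 64 and 94. No called result reversed. Depth is unknown, so its limit on genes under 1 FPKM cannot be given.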
